A study of Mus musculus with 4 samples.

Results

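The genes described here encode the protein components of the cytosolic ribosome, 88 genes of the 47729 in the deposited table, 52 of them named for the large (60S) subunit and 36 for the small (40S) subunit. They were chosen by gene name alone, as names beginning Rpl or Rps and ending in a number with at most a short suffix, together with Rplp0, Rplp1, Rplp2 and Rpsa. Names holding -ps, given to pseudogenes, and the Rps6k kinases were left out. Some of the -ps genes, such as Rpl10-ps3 and Rps12-ps3, are nevertheless annotated as protein-coding. The rule also takes in 5 genes with no transcript annotated as protein-coding (Rps3a2, Rps3a3, Rps12l1, Rpl6l and Rps4l), and it leaves out 4 ribosomal proteins of other names (among them Fau, Gnb2l1, which encodes Rack1, and Rpl36al), which are described apart. RNA came from neutrophils sorted by flow cytometry from the bone marrow and spleen of SKG mice, 2 libraries from wild-type mice and 2 from Mif -/- mice. All 4 libraries come from the SKG strain, which carries a Zap70 mutation on a BALB/c background and is a model of arthritis and spondylitis, and all were taken 8 weeks after the mice received curdlan, a beta-glucan that sets off the disease. Mif encodes macrophage migration inhibitory factor, a secreted cytokine. The labels give neither how the Mif allele was made nor the proportions of marrow and spleen. They also leave unsaid whether replicates are different mice, and each p-value below therefore measures the spread between libraries only, which may be technical.

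Ribosomal proteins are assembled with ribosomal RNA in the nucleolus into the subunits that carry out all cytosolic protein synthesis, and most are needed in equal number per ribosome. Their mRNAs begin with a run of pyrimidines after a cytosine, the terminal oligopyrimidine (TOP) motif, through which mTOR and Larp1 control their translation as a class, and many of their introns carry small nucleolar RNAs (snoRNAs). Neutrophils build most of their ribosomes as precursors in the marrow, and the mature cell is known for a low content of ribosomes and RNA.

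Start regions are shown for the stalk genes Rplp0, Rplp2 and Rpl12 of the large subunit, for the highly expressed Rpl9, Rpl41, Rps9 and Rps27, and for Rps10, because pyrimidine runs at the start, which the naming rule did not use, were more frequent at members' starts than at others, although most members' starts lacked one over the start base. Each window holds the 40 bases before and the 10 bases from a RefSeq start (GRCm38.p6), and the capitals mark the longest unbroken run of C and T that reaches within 10 bases of that start.
Rplp0, chr5:115559427-115559476, plus strand: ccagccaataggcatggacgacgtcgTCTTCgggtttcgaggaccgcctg
Rplp2, chr7:141447611-141447660, plus strand: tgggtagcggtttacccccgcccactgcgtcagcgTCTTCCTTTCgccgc
Rpl12, chr2:32961672-32961721, plus strand: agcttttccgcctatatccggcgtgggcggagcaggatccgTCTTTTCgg
Rpl9, chr5:65391422-65391471, minus strand: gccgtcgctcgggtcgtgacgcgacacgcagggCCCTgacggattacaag
Rpl41, chr10:128549159-128549208, minus strand: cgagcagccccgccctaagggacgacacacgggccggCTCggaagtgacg
Rps9, chr7:3704001-3704050, plus strand: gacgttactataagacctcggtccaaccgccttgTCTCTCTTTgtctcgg
Rps27, chr3:90213639-90213688, minus strand: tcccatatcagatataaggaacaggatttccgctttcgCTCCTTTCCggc
Rps10, chr17:27635235-27635284, minus strand: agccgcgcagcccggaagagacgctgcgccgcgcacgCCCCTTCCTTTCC
In the windows of Rplp2, Rps9, Rps27 and Rps10 the run covered the start base and was 10, 9, 9 and 13 bases long. In Rpl12 it began just after the start and was 7 bases long, and in Rplp0, Rpl9 and Rpl41 it was 5, 4 and 3 bases long and did not cover the start. RefSeq windows matched 63 of the 88 members, with 75 starts. A run of at least 5 pyrimidines covered the start in 20 of these 75 (26.7%), against 10.1% of the 32851 starts of 27025 genes in the same table. A run of at least 8 lay within 10 bases of the start in 30 (40%), against 13.7%, the median longest run was 6 bases against 4, and the start base was a C in 29.3% against 16.3%. The motif TATAAA, searched on both strands over the table's whole window of 250 bases before to 50 after the start, was present at 7 of the 75 starts (9.33%), against 13.6%. These counts describe the letters of the windows and nothing about a factor.

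Library facts bear on every comparison below. FPKM (fragments per kilobase of transcript, scaled to the library) summed to between 528436 and 566456 per library. The steps between low values put the depth of the knockout libraries at 5.28 and 4.80 and of the wild-type libraries at 1.23 and 1, relative to wild-type replicate 2. The run names place the wild-type libraries in one lane and the knockout libraries in another, so genotype, depth and lane cannot be told apart. Mif was listed at 0 in the knockout pair and at 0.88 and 2.88 FPKM in the wild-type pair. All 10 neutrophil markers passed 1 FPKM, and their sum ran from 108029 to 114274 FPKM. The sum hides single markers: 5 were higher in both knockout libraries, among them Ly6g (519 and 491 against 918 and 936 FPKM). Another 2, S100a8 and S100a9, which have the highest levels, were lower in both (all genes tested: 29.6% higher and 23.1% lower). The sum of 6 promyelocyte markers was 94.6 and 114 FPKM in the wild-type and 128 and 128 in the knockout libraries, and that of 7 B and plasma cell markers was 196 and 159 against 35.6 and 41.3. Sums were 4.94 and 20.5 against 16.7 and 16.3 for 8 erythroid markers, 32.7 and 47.8 against 39.5 and 44.4 for 7 monocyte and macrophage markers, and 62.3 and 72.7 against 64.1 and 64.6 for 6 T cell markers, nearly all from Cd3d, with Trac listed at 0 in every library. The 3 progenitor markers summed to at most 0.532, and the 37 mitochondrially encoded genes to between 1636 and 2020.

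Messages for ribosomal proteins made up a small and even part of these transcriptomes. Members summed to 6503 and 6625 FPKM in the wild-type libraries (replicates 1 and 2, the order used throughout) and to 6773 and 6832 FPKM in knockout replicates 1 and 2, which was 1.21%, 1.25%, 1.20% and 1.23% of all FPKM. As shares of the library the 2 genotypes overlapped, while the sums themselves, and the shares of protein-coding FPKM, were higher in both knockout libraries. In mean level, 57 members lay at or above 50 FPKM, 21 between 10 and 50, 7 between 1 and 10, and 3 under 1. The median of the members' mean levels was 69.4 FPKM, 60.8 for large-subunit and 85.2 for small-subunit genes.

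The highest level belonged to Rps9, a protein of the small-subunit body (443 and 444 FPKM in wild type, 447 and 418 in knockout). Rps29, a zinc-binding protein of the small-subunit head, followed at 424 and 403 FPKM against 369 and 384. Together they held 23.9% of the mean summed FPKM of the small subunit. Rps27, another zinc-binding protein, stood at 214 and 254 FPKM in wild type against 217 and 254 in knockout, so replicates of a genotype differed more than the genotypes did. Rps27a, made as a fusion with ubiquitin, was at 169 and 170 against 154 and 163 FPKM, and Rps15, of the head, at 126 and 138 against 130 and 130. In the large subunit the highest were Rpl9 (166 and 192 against 175 and 183 FPKM) and Rpl41, which encodes the shortest ribosomal protein (148 and 144 against 168 and 153). Rpl23a, at the rim of the exit tunnel where signal recognition particle docks, was at 140 and 133 against 141 and 143 FPKM, Rpl35a at 137 and 142 against 132 and 129, and Rpl37a at 137 and 128 against 119 and 129. Although the proteins are needed in equal number, mean levels of tested members with a coding transcript ran from 2.94 FPKM (Rpl29) to 438 FPKM (Rps9). Some tested members without a coding transcript lay lower, under 2 FPKM. The order of the tested members was almost the same in every library, with Pearson's r between 0.992 and 0.997 for log2(FPKM + 1) between any pair of libraries over 85 genes that share those libraries. Level was little related to transcript length over the 85 genes (r = -0.18, rho = -0.18).

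**Figure D1:**
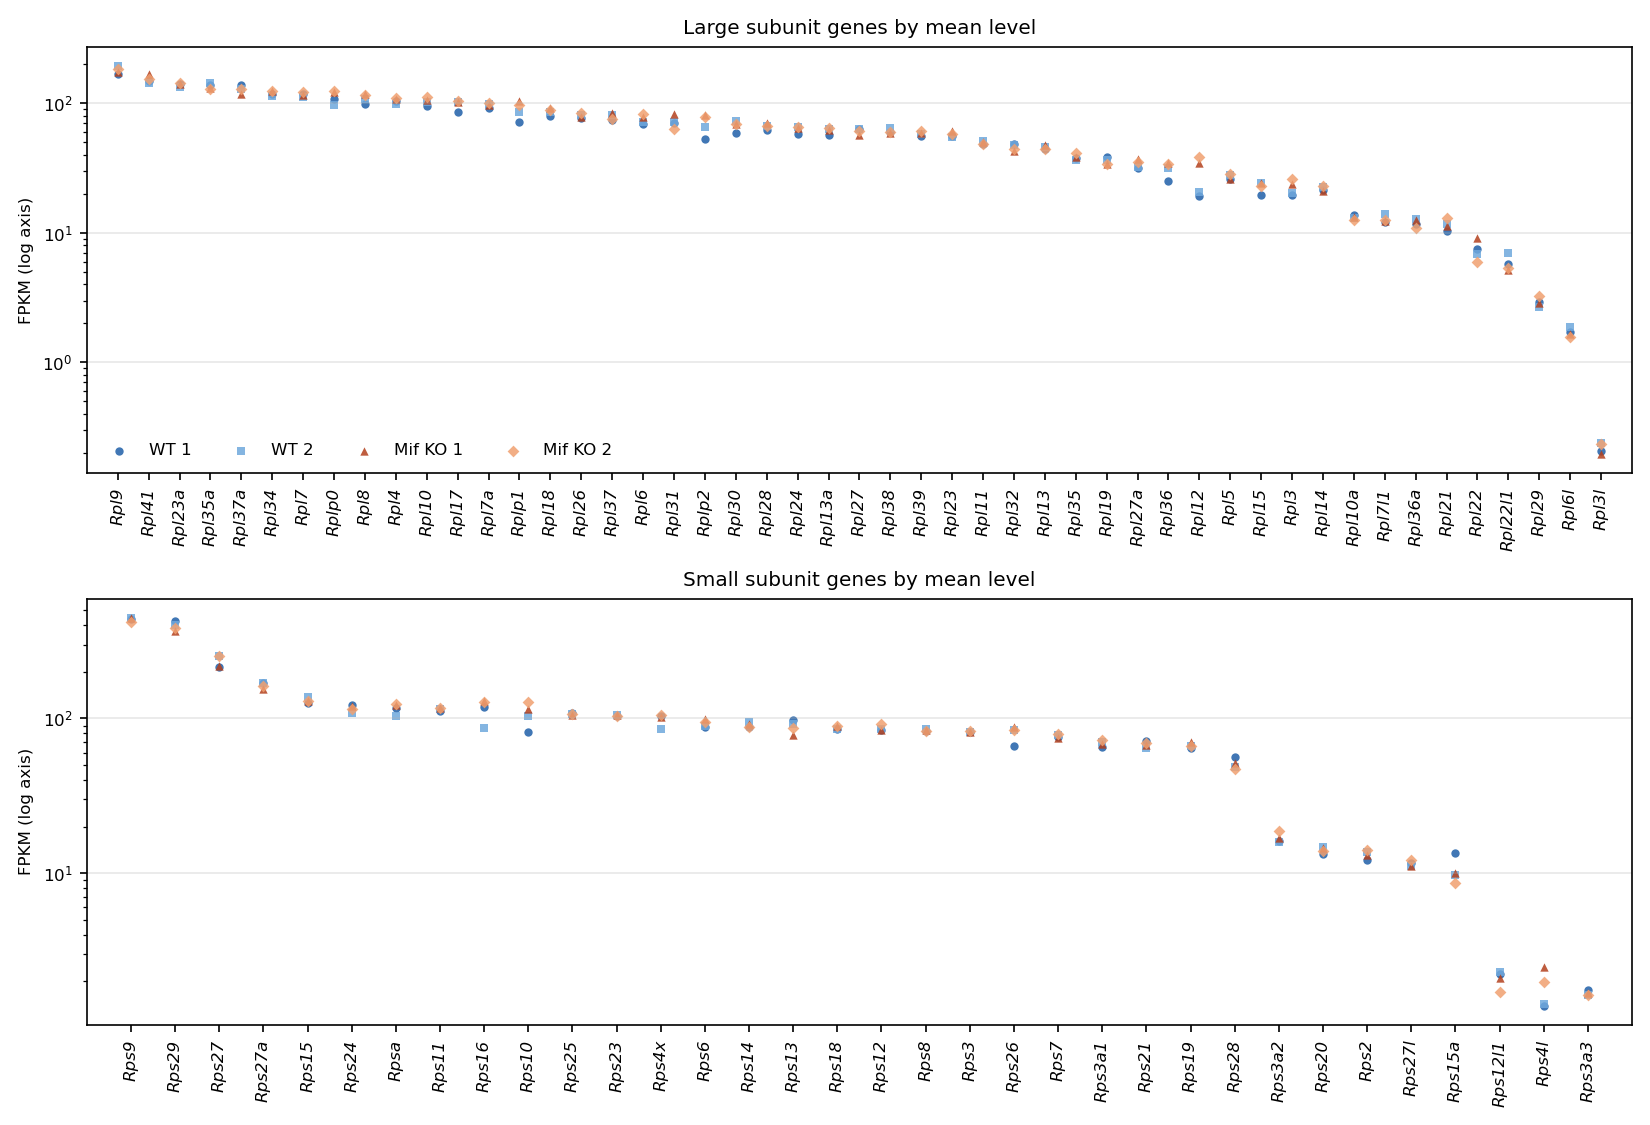
Level of large-subunit (upper) and small-subunit (lower) genes in FPKM on a log axis, ordered by mean, with 1 marker per library. Rpl10l and Rpl39l, listed at 0 in at least 1 library, cannot be drawn on a log axis, 3 other members are not drawn, and in most genes the 4 markers lie close together beside the range from under 2 to over 400 FPKM across genes.

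Summed by subunit, large-subunit genes came to 3040 and 3167 FPKM in wild type against 3305 and 3302 in knockout. Both knockout libraries lay above both wild-type libraries, and the mean was 3103 ± 90.1 against 3303 ± 1.65 FPKM (SD, n = 2 each), 6.45% higher in knockout. Total FPKM was also higher in both knockout libraries (537783 and 528436 in wild type against 566456 and 555540), so these sums carry that difference in scale. As shares of all FPKM, members of the 2 subunits together overlapped between the genotypes. Relative to the FPKM of protein-coding genes they did not overlap, at 1.643% and 1.647% in wild type against 1.677% and 1.653% in knockout. Small-subunit genes came to 3464 and 3458 FPKM against 3468 and 3530, a mean of 3461 ± 3.84 against 3499 ± 44.0 (SD, n = 2), 1.10% higher. The ratio of small to large subunit was 1.14 and 1.09 in wild type and 1.05 and 1.07 in knockout, with means of 1.12 ± 0.0336 and 1.06 ± 0.0138 (SD, n = 2). For each of these 3 quantities the two-sided exact permutation test over the 4 libraries gave p = 0.333, the smallest that 2 against 2 can give. The direction of the small-subunit difference depended on the scaling: it was 38.1 FPKM as deposited, -43.7 after scaling to the FPKM of protein-coding genes and -2.60 after centring libraries on their median gene. The ratio does not depend on a library's scale. Promyelocyte marker sums, which lay mostly on Fcnb, were also higher in both knockout libraries. Of the 6 markers 3 were higher in both and 0 lower (all genes tested: 29.6% and 23.1%). These were Fcnb (76.1 and 90.04 against 99.8 and 101), Prtn3 (3.56 and 3.92 against 10.8 and 9.49) and Ctsg, at most 0.138 FPKM. Mpo lay between 0.661 and 0.869 in all libraries. The part of promyelocyte markers in the large-subunit sum was not tested. In bulk RNA, fewer cells of a type and less RNA per cell cannot be told apart.

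No ribosomal protein gene passed the test of knockout against wild type. Of the 88 members, 85 reached a mean of 1 FPKM in either genotype and were tested with limma on log2(FPKM + 1), fitted over 10221 genes. At a Benjamini-Hochberg adjusted p under 0.05, 0 of the 85 passed, where 0.342% of all genes tested did. At an unadjusted p under 0.05 there were 8 members higher in knockout and 0 lower, against 8.35% and 9.56% of all genes (17.9% in either direction) and 9.46% and 4.08% of the 8453 protein-coding genes tested. Differences were positive for 59 of 85, where 54.2% of all genes and 60.9% of protein-coding genes were. The groups did not overlap for 31 members higher and 11 lower in knockout, against 29.6% and 23.1% of all genes and 33.7% and 16.5% of protein-coding genes. The median log2 difference, knockout minus wild type, was 0.049 for the 85 members, 0.073 for the 49 tested large-subunit genes and 0.017 for the 36 small-subunit genes, beside 0.018 for all genes tested and 0.041 for all protein-coding genes tested. With libraries scaled to their protein-coding genes the small-subunit median was -0.017. The mean level in knockout was within 10% of that in wild type for 60 of the 85.

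Leaving out either wild-type library changed the count of 0. Without wild-type replicate 1, 10 members passed, and without wild-type replicate 2, 15 did, but 26.0% and 28.8% of all genes tested then passed too, since the spread came from the knockout pair alone and the lone wild-type library was assumed to vary like it. Without either knockout replicate, 0 members and 0.0% of all genes passed, with 1 and 2 members at an unadjusted p under 0.05. With libraries centred on their median gene 1 member passed, Rpl12 (limma adjusted p = 0.046), where 0.323% of all genes did. In the authors' deposited table, 0 of the 373 member transcripts with a p-value had a q-value under 0.05, where 0.0685% of all 65729 transcripts had one. The lowest q-value of a member there was 0.082, for a transcript of Rps27l.

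**Figure D2:**
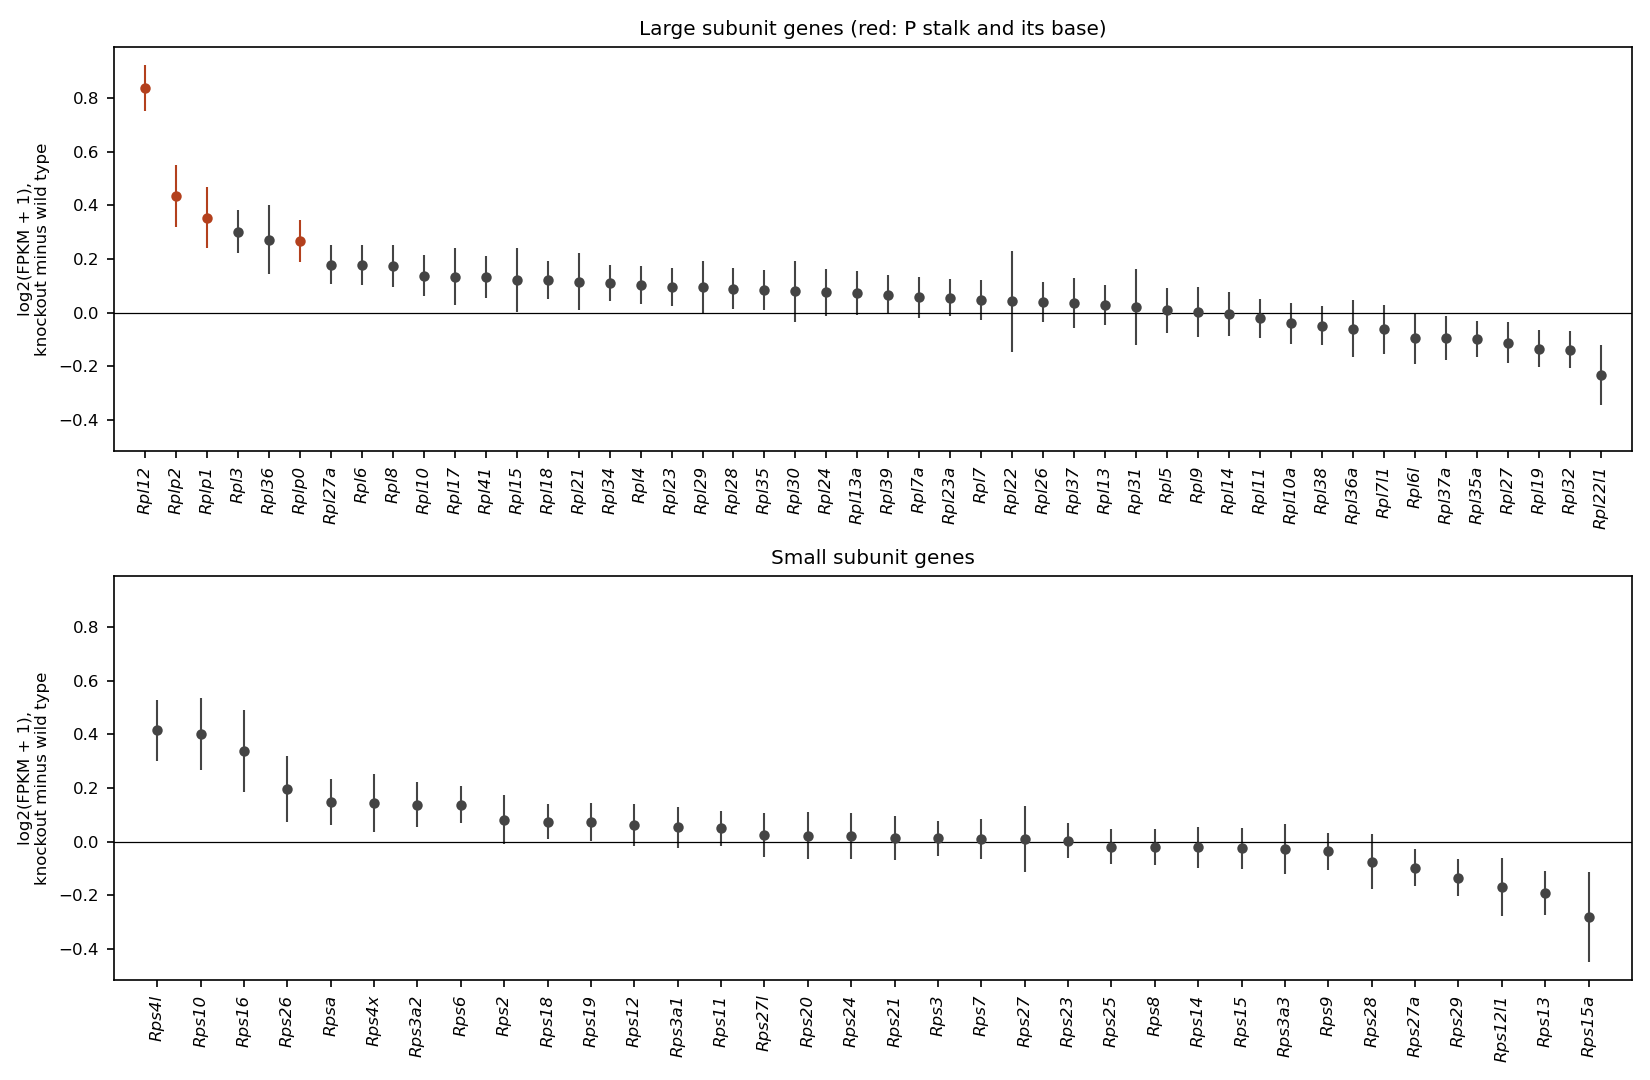
Difference in log2(FPKM + 1), knockout minus wild type, for the large-subunit (upper) and small-subunit (lower) genes tested, ordered by size, with 3 tested members not drawn. Points are limma estimates from 2 against 2 libraries, bars are 1 standard error, and red marks Rplp0, Rplp1, Rplp2 and Rpl12; Rpl12 stands highest at 0.84, and most other genes lie within 0.2 of 0.

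The highest positive differences among groups of known role were in the P stalk of the large subunit and its base. The stalk is a flexible arm of Rplp0 carrying dimers of Rplp1 and Rplp2, it stands on Rpl12, and it recruits the elongation factors and stimulates their GTPase activity. Rpl12 (ENSMUSG00000038900, chr2:32961559-32965345, plus strand) was at 19.3 and 20.5 FPKM in wild type against 34.6 and 38.1 in knockout. The groups lay far apart beside the gap within each, and the log2 difference was 0.84 ± 0.085 (SE; limma adjusted p = 0.057), just above the threshold. Rplp2 was at 53.0 and 65.0 against 81.3 and 78.2 FPKM (0.43 ± 0.115, limma adjusted p = 0.173). Rplp1 was at 71.2 and 86.0 against 104 and 96.5 FPKM (0.35, limma adjusted p = 0.221), and Rplp0 at 107 and 97.2 against 121 and 125 (0.27, limma adjusted p = 0.196). In each of the 4 genes both knockout libraries lay above both wild-type libraries, as they did in 29.6% of all genes tested. For Rpl12 this held for the gene total only: on coding transcripts alone its difference was -0.84, and the added FPKM lay on a transcript annotated for nonsense-mediated decay, described below with the other transcripts. None of the 4 passed over all genes. All 4 were higher in knockout at an unadjusted p under 0.05, where 8.35% of all genes tested were. Their median difference was 0.39, beside 0.018 for all genes tested. The groups were described with these values known, so the count is no support for the group. Without wild-type replicate 1 the difference of Rplp1 was 0.22 and that of Rplp2 was 0.29. The other 81 members had a median difference of 0.042, with 55 positive (all genes: 54.2%) and 4 at an unadjusted p under 0.05 (all genes: 17.9%).

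**Figure D3:**
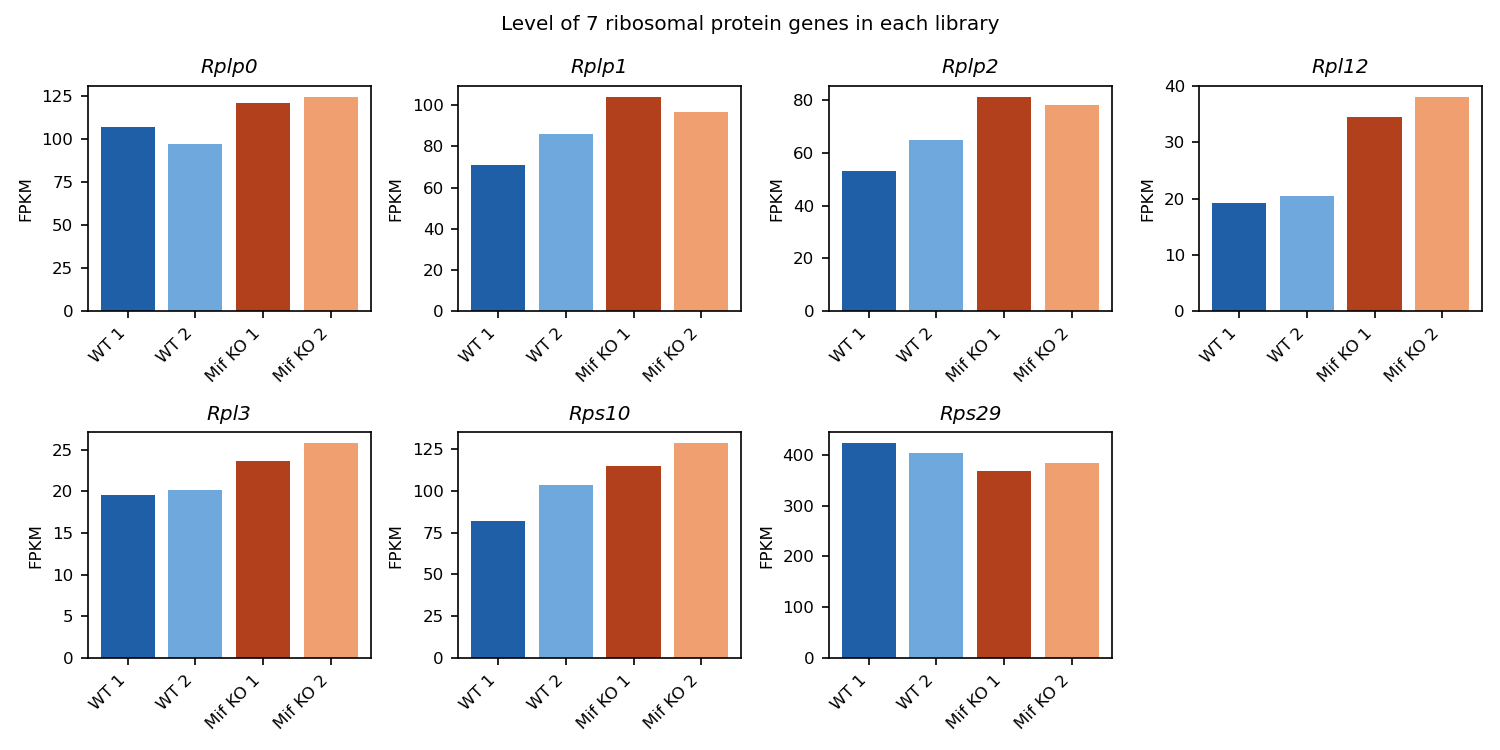
FPKM of 7 ribosomal protein genes in each library, 1 bar per library and axes starting at 0. In Rplp0, Rplp1, Rplp2, Rpl12, Rpl3 and Rps10 both knockout bars stand above both wild-type bars, and in Rps29 both stand below (369 and 384 against 424 and 403 FPKM); none of the 7 passed the test.

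Transcripts of higher GC content tended to be higher in the knockout libraries, in members and elsewhere. Over the 85 members the difference correlated with the GC content of the most abundant transcript at r = 0.38 (rho = 0.28), and over 10174 genes at r = 0.24 (rho = 0.25), as a description across genes that share 4 libraries. The median GC content was 55.8% in the 4 stalk genes and 50.9% over all tested members. With differences corrected for length and GC content over all genes, Rpl12 was at 0.77, Rplp2 at 0.39, Rplp1 at 0.32 and Rplp0 at 0.24. Uncorrected, they were at 0.84, 0.43, 0.35 and 0.27. For Rpl12 the length and GC content are those of the transcript annotated for nonsense-mediated decay, its most abundant over the 4 libraries. The part of GC content in the stalk differences was not tested. Rps4l, the member of highest GC content in the plot of difference against GC content, was at 1.39 and 1.42 against 2.45 and 1.98 FPKM. Its difference of 0.41 was 0.18 after the same correction. That GC content is of its most abundant transcript, at 1.30 and 1.28 FPKM in wild type against 0.895 and 0.446 in knockout. The higher total of Rps4l in knockout thus lay on its other transcript.

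**Figure D4:**
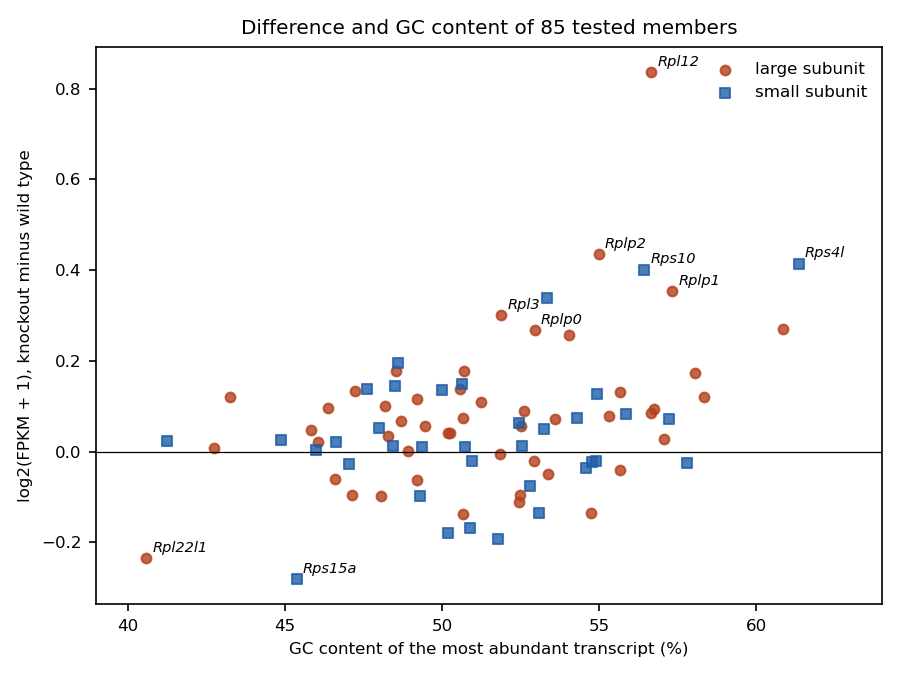
Difference in log2(FPKM + 1), knockout minus wild type, against the GC content in percent of each gene's most abundant transcript, for 85 members (circles large subunit, squares small subunit). Points scatter widely around a weak upward trend (r = 0.38), with Rpl12 above the rest at 0.84 and Rps15a and Rpl22l1 at the lower left.

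Elsewhere in the large subunit, most differences were smaller, but those of Rpl3 (0.30) and Rpl36 (0.27) were as large as that of the stalk gene Rplp0 (0.27). Rpl5 and Rpl11, which bind 5S ribosomal RNA and, when free, the p53 regulator Mdm2, were at 26.1 and 27.8 against 25.8 and 28.5 FPKM and at 48.5 and 51.2 against 49.7 and 48.5. In both the genotypes overlapped. Of the 3 proteins near the peptidyl transferase centre, where peptide bonds form, Rpl3 was at 19.5 and 20.2 against 23.7 and 25.8 FPKM (0.30, limma adjusted p = 0.173). Rpl8 was at 98.2 and 108 against 117 and 115 FPKM and Rpl10, which joins the subunit late in its maturation, at 95.5 and 103 against 106 and 112. All 3 were higher in both knockout libraries (all genes: 29.6%), with a median difference of 0.17. Of the 3, 1 had an unadjusted p under 0.05 (all genes: 8.35% higher in knockout at that p). For Rpl3, pseudogenes named after it held 31.0% of the FPKM of gene and copies together. Of 9 genes of the exit tunnel, through which the growing chain leaves, 8 had positive differences (median 0.056), and the groups did not overlap for 4 higher and 1 lower (all genes: 29.6% and 23.1%), with 0 at an unadjusted p under 0.05 (all genes: 17.9%). The 1 below was Rpl19, which forms bridges between the subunits, at 38.3 and 36.6 against 33.9 and 34.2 FPKM (-0.13). In the other direction Rpl32 was at 48.4 and 47.6 against 43.0 and 44.1 FPKM (-0.14) and Rpl27 at 63.2 and 63.6 against 56.4 and 60.9 (-0.11).

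Small-subunit genes were divided in direction. Of 14 head proteins 8 were positive and 6 negative (median 0.017), and of 17 body and platform proteins 12 were positive and 5 negative (median 0.013). Rps10, a head protein that Zfp598 ubiquitinates on stalled ribosomes, was at 81.7 and 103 against 115 and 129 FPKM. Its groups did not overlap, but wild-type replicates differed by more than the nearest pair across genotypes (0.40, limma adjusted p = 0.237, and 0.23 without wild-type replicate 1). Rps16, also of the head, was at 118 and 87.0 against 129 and 127 FPKM (0.34, and -0.50 on coding transcripts alone), with wild-type replicate 2 apart from the other 3 libraries. Rps6, the substrate of S6 kinases, was at 88.1 and 89.0 against 99.8 and 95.1 FPKM (0.14, and -0.048 on coding transcripts alone).

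Among small-subunit genes, lower levels in knockout came with smaller differences than those of Rps10 (0.40) and Rps16 (0.34). Rps13 was at 97.1 and 91.6 against 78.6 and 86.5 FPKM (-0.19). For Rps29 the difference was -0.14 and for Rps27a -0.10, both without overlap of the groups. Rps15a, a body protein, was at 13.5 and 9.75 against 9.94 and 8.66 FPKM (-0.28), where the high value of wild-type replicate 1 set the difference and the groups overlapped. None of these lower genes had an unadjusted p under 0.05. Of 19 genes mutated in Diamond-Blackfan anaemia, an inherited red cell aplasia, 12 were positive and 7 negative (median 0.010), where 54.2% of all genes were positive. Among the 19, 1, Rps10, had an unadjusted p under 0.05 (all genes: 17.9%).

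Genes that carry snoRNAs were counted apart, since the host intron yields the snoRNA when the mRNA is spliced. Of 30 members with an annotated snoRNA gene inside their span on the same strand, 27 had a positive difference (median 0.076), and so had 32 of the 55 tested members without one (median 0.013). Differences were positive for 54.2% of all genes tested and 60.9% of protein-coding genes tested. Groups did not overlap for 14 hosts higher and 2 lower, and for 17 and 9 of the 55 others, beside 29.6% and 23.1% of all genes. Hosts at an unadjusted p under 0.05 numbered 4, among them Rpl12, Rplp2 and Rpl3, and those without numbered 4 too. All were higher in knockout, as were 8.35% of all genes at that p. Hosts and non-hosts had a median GC content of 50.7% and 51.3%. The difference between these classes was not tested.

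Tissue-restricted paralogs were nearly silent. Rpl10l, a copy used in male germ cells, was listed at 0 in all 4 libraries, Rpl39l at 0.188 and 0 against 0.045 and 0.094 FPKM, and Rpl3l, the striated muscle form of Rpl3, at 0.206 and 0.239 against 0.197 and 0.235, so these 3 were not tested. Rpl22l1, which can stand in for Rpl22, was at 5.73 and 7.02 against 5.14 and 5.35 FPKM (-0.23), and Rpl22 itself at 7.46 and 6.87 against 9.07 and 6.0. Rps27l, a p53 target gene, was at 11.5 and 11.1 against 11.04 and 12.1 FPKM beside 214 to 254 for Rps27. Rpl7l1 was at 12.2 and 13.9 against 12.4 and 12.5 FPKM. Of the 9 members counted as paralogs by name 6 were tested, and 2 of the 6, Rps27l and Rps4l, were positive (median -0.079). The 6 include Rpl6l, Rps12l1 and Rps4l, which have no coding transcript.

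Genes with no coding transcript among the members lay low, apart from 1. Rps12l1 was at 2.22 and 2.29 against 2.096 and 1.71 FPKM, Rpl6l at 1.73 and 1.86 against 1.67 and 1.56, and Rps3a3 at 1.75 and 1.63 against 1.67 and 1.62. Rps3a2, a processed copy of Rps3a1, was at 16.1 and 15.9 against 16.8 and 18.7 FPKM, beside 65.6 and 70.1 against 68.4 and 72.4 for Rps3a1. Another 270 genes are named as pseudogenes of members, and they summed to 299 and 311 FPKM in wild type against 302 and 291 in knockout, 4.09% to 4.49% of members and copies together. Of the 59 tested, 22 were positive and 37 negative (median -0.069), and 0 passed. Copies held the most for Rps2 (68.6% of gene and copies), Rpl21 (52.7%) and Rpl15 (36.0%), so the levels of these genes, such as 12.1 and 13.6 against 13.2 and 14.2 FPKM for Rps2, are uncertain, since near-identical reads may have been divided among them.

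Within the genes, FPKM was divided among 385 annotated transcripts, and here single genes differed far more than in their totals. Transcripts annotated as protein-coding held 94.2% and 93.7% of member FPKM in wild type against 93.1% and 93.1% in knockout. Retained-intron transcripts held 3.46% and 3.04% against 2.61% and 3.06%, those annotated for nonsense-mediated decay, which destroys mRNAs with an early stop codon, 1.03% and 1.45% against 1.80% and 1.61%, and other processed transcripts 1.00% and 1.43% against 2.16% and 1.89%. Of the tested members, 35 had over 99% of FPKM on coding transcripts, 5 had none and 45 lay between. Among those 45 the coding share was higher in both knockout libraries for 22 and lower in both for 5, where 52.5% and 7.52% of 5263 such genes over the whole table were. Shares differed by more than 20 percentage points between wild-type replicates in 4 genes, between knockout replicates in 4, and between genotype means in 4. Those last 4, Rpl12, Rpl7a, Rps16 and Rps18, were picked out after their values were seen and are given as descriptions. Fitted on coding transcripts alone, 6 of 80 members had a difference of the other sign than for all their transcripts.

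Rpl12 divided its FPKM differently in the 2 genotypes. Its coding transcript ENSMUST00000126610 was at 14.9 and 17.0 FPKM in wild type against 8.55 and 8.38 in knockout, while ENSMUST00000102811, annotated for nonsense-mediated decay, was at 3.79 and 0 against 25.3 and 29.0. The coding share was 77.3% and 83.0% in wild type and 24.7% and 21.98% in knockout. On coding transcripts alone the log2 difference of Rpl12 was -0.84 in place of 0.84, so the sign of the highest difference among the members turns on how reads were given to these transcripts. The transcripts share 5 identical exons of 7, and the second runs 121 bases further at the end of its first exon, into the coding transcript's first intron, which shifts the reading frame by 1 base. It also ends in a last exon of 53 bases where the coding one has 506, and is 729 bases long against 1242. The added segment (GRCm38, GENCODE M21) is shown because it separates the transcripts, with capitals at the splice donor letters it begins with.
Rpl12, chr2:32961840-32961960, plus strand: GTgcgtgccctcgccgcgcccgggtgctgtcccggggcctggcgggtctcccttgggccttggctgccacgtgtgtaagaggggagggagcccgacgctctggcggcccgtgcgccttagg

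Rpl7a, a large-subunit gene, divided its FPKM differently too, although its totals overlapped at 91.2 and 98.4 FPKM in wild type against 96.5 and 101 in knockout. Its coding transcript ENSMUST00000102898 was at 75.4 and 82.8 FPKM against 13.9 and 34.9, and ENSMUST00000143678, annotated as a processed transcript, at 0 and 0.105 against 49.3 and 42.2. The coding share was 82.7% and 84.2% against 14.4% and 34.6%. On coding transcripts alone the log2 difference of Rpl7a was -1.79 (limma adjusted p = 0.198), beside 0.058 for its total. The transcripts share 6 exons and have nearly the same length, 914 and 920 bases. The processed transcript lacks the coding transcript's first exon of 67 bases and has a stretch of 73 bases added before a later exon, shown with capitals at the splice acceptor letters it ends in.
Rpl7a, chr2:26912293-26912365, plus strand: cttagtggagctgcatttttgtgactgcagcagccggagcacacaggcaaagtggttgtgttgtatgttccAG

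In Rps16 it was a wild-type library that stood apart, not a genotype. Its coding transcript ENSMUST00000082134 was at 35.0 and 81.4 FPKM in wild type against 38.3 and 37.0 in knockout, and the retained-intron transcript ENSMUST00000152918 at 80.7 and 0.661 against 91.0 and 89.6. Wild-type replicate 1 was thus like both knockout libraries. The transcripts share 1 identical exon, and the coding one is 1109 bases long with a last exon of 662, against 628 and 203. The intron is therefore not their only difference, and which difference drew the reads was not tested. The retained intron of 89 bases, with capitals at its donor and acceptor letters, follows.
Rps16, chr7:28352274-28352362, plus strand: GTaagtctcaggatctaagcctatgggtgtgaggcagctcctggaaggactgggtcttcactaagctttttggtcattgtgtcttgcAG
Rps13 had a coding share of 75.5% and 27.3% in wild type and 41.6% and 45.7% in knockout, Rps18 of 49.9% and 62.6% against 96.6% and 75.3%, and Rpl22, whose FPKM lay mostly on a processed transcript, of 18.9% and 17.0% against 11.2% and 43.3%. Differences as large between replicates as between genotypes therefore occurred, in wild type for Rps16 and Rps13 and in knockout for Rpl22. Depth differed between the genotypes throughout, and its part in these shares was not tested.

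**Figure D5:**
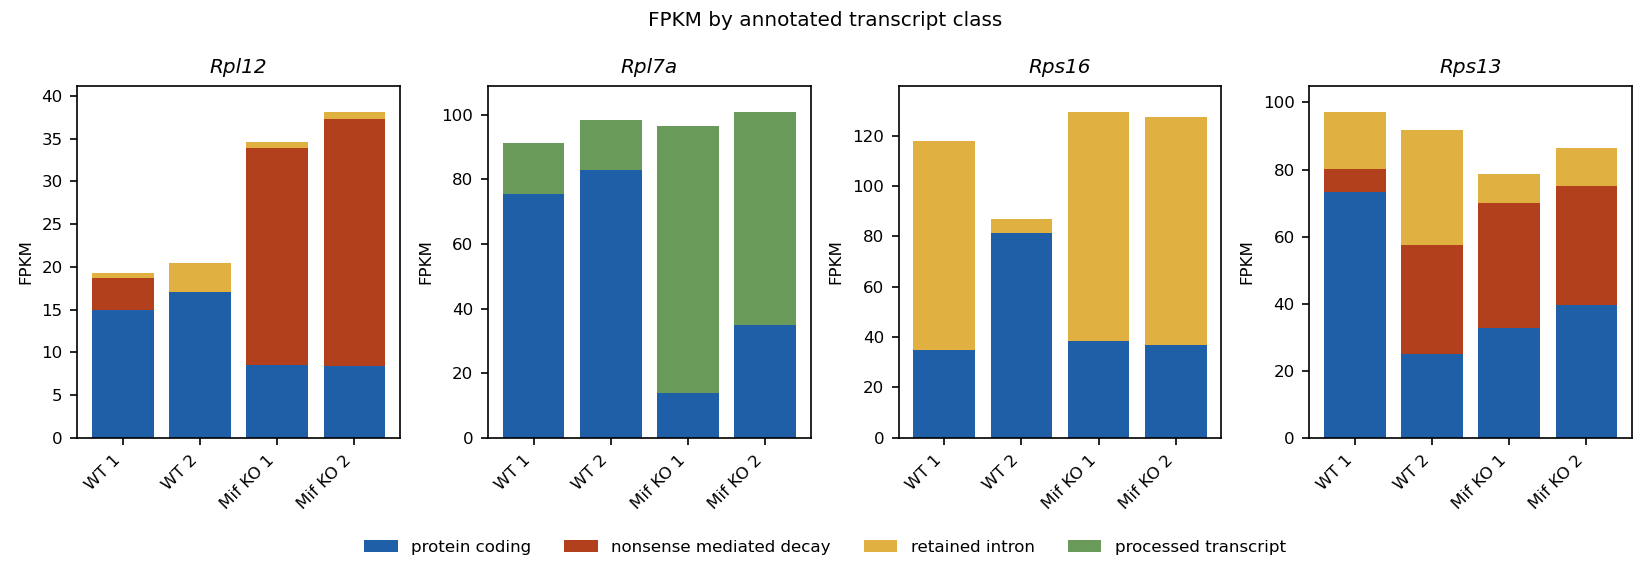
FPKM of Rpl12, Rpl7a, Rps16 and Rps13 in each library, stacked by the annotated class of the transcripts (blue coding, red nonsense-mediated decay, yellow retained intron, green processed transcript). In Rpl12 and Rpl7a the blue part is smaller in both knockout libraries, in Rps16 it is larger in wild-type replicate 2 alone, and in Rps13 in wild-type replicate 1 alone.

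Ribosomal proteins outside the naming rule did not pass the test either. Fau, whose product is cut into a ubiquitin-like protein and the small-subunit protein eS30, was at 337 and 403 FPKM in wild type against 431 and 420 in knockout (0.21), which places it among the highest. Gnb2l1, for the scaffold protein Rack1 on the small-subunit head, was at 46.7 and 51.9 against 52.3 and 54.8 FPKM. Rpl36al was at 8.98 and 11.04 against 9.77 and 10.1 FPKM. Of the 4, 3 were positive (median 0.072), and 0 passed.

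Genes that build and watch over ribosomes gave the same count. Of 41 assembly factors found, 27 were tested, with 8 positive and 19 negative (median -0.056) and 0 past the threshold. At an unadjusted p under 0.05, 9.56% of all genes and 4.08% of protein-coding genes tested were lower in knockout. At that p there were 2 assembly factors, both lower, a count not tested against either share. These were Nop58, a core protein of box C/D snoRNA particles, at 1.49 and 1.65 against 0.701 and 0.908 FPKM (-0.51, limma adjusted p = 0.152), and Gnl2, a nucleolar GTPase of 60S assembly, at 3.93 and 4.12 against 2.68 and 2.91 (-0.40, limma adjusted p = 0.146). In the other direction Eif6, which keeps new 60S subunits from joining 40S, was at 16.2 and 14.8 against 17.8 and 17.0 FPKM (0.16), and Gnl3l at 3.39 and 3.56 against 3.99 and 4.18 (0.18). Of 12 tested genes of RNA polymerase I, which transcribes ribosomal RNA, and its factors, 9 were positive and 3 negative (median 0.083). At an unadjusted p under 0.05 there were 0 (all genes: 17.9%). Znrd1, a subunit of the enzyme, was at 3.66 and 4.65 against 5.33 and 4.97 FPKM (0.26), Taf1c, of its promoter factor, at 2.37 and 2.84 against 3.21 and 3.09 (0.21, and -0.043 after the length and GC correction), and the terminator protein Ttf1 at 5.16 and 6.04 against 4.80 and 4.84 (-0.18).

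Of 14 tested regulators of TOP mRNAs, 10 were positive and 4 negative (median 0.029), with 0 at an unadjusted p under 0.05 (all genes: 17.9%). Rps6kb1, the S6 kinase downstream of mTOR, was at 7.41 and 7.89 against 6.39 and 6.75 FPKM (-0.19). Tsc2, an inhibitor of mTOR complex 1, was at 5.44 and 5.27 against 6.05 and 5.84 FPKM (0.13), and Eif4ebp2, a translation repressor that mTOR inactivates, at 51.8 and 44.96 against 52.7 and 54.8 (0.15). Max, the partner of Myc, was at 145 and 144 against 138 and 139 FPKM (-0.062). Of 12 tested ribosome quality control genes, 9 were positive and 3 negative (median 0.059). Pelo, which releases stalled ribosomes, had an unadjusted p under 0.05 (all genes: 17.9%), at 0.69 and 0.749 against 1.29 and 1.16 FPKM (0.37, limma adjusted p = 0.187). Zfp598, which marks collided ribosomes through Rps10, was at 3.91 and 4.91 against 5.35 and 5.18 FPKM (0.22), and Rnf25, a ubiquitin ligase, at 28.4 and 28.0 against 25.2 and 26.85 (-0.11).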

How the data were processed

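The authors deposited 1 table of FPKM per transcript and library, beside which stand their own fold, p-value and q-value, per the file headers. The submitters' processing notes name the build GRCm38 and the tools StringTie 2.1.4, HISAT2 2.1.0, R 3.6.1 and SAMtools 1.9, without role or order. Per the labels' protocols, libraries were stranded and made from total RNA depleted of ribosomal RNA. Not given in the sources used here are the strand setting and the annotation release. Such estimates divide reads among transcripts and near-identical copies, and FPKM is relative to a library's total. The table gives no counts, so no counting interval is given.

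Gene FPKM is the sum over a gene's transcripts. Where the mean reached 1 FPKM in one genotype or both, the gene entered limma 3.58.1 (R 4.3.3, trended empirical Bayes, no covariates) on log2(FPKM + 1), which understates differences of low genes, with a call at a Benjamini-Hochberg adjusted p below 0.05. This script was tested on simulated data. Sums were compared by exact permutation, two-sided. Transcript classes, lengths, GC content, snoRNA genes and segments came from GENCODE M21, in which 114332 of 115220 transcripts and 47310 of 47729 genes were found. Promoter windows came from RefSeq (GRCm38.p6). Symbols Rack1, Snu13, Efl1, Riok2 and Gcn1 matched no gene name.

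Members and lists were chosen with earlier results of these data known. Genes were named by rule: Mif, the 5 highest members of each subunit, per direction the 5 of lowest unadjusted p in each subunit, paralogs, P proteins, the 5 of lowest coding share, and up to 2 genes per direction in each other list. The short role groups, genes with the most pseudogene FPKM, Rps3a1, Rpl7a, Rpl22, Rpl36 and Rps18 were added after values were seen. A few genes that the rule would name are not reported here. Alternatives covered the pseudocount (0.1), the filter, scaling, pseudogenes, coding transcripts, GC and length, a replicate block and leaving out each library.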

Additional observations from a re-analysis of the deposited data

How the results depend on the processing

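With FPKM from 2 libraries a genotype, the depth behind a value is known only in relative terms and its counting error is not. Members past the threshold numbered 0 as reported and 0 to 15 with each library left out in turn (15 without wild-type replicate 2, 10 without wild-type replicate 1). Median centring gave 1 (Rpl12, where 0.323% of all genes passed), and every other alternative run gave 0. With the replicate number as a block 0 passed, with 9 members at an unadjusted p under 0.05 in place of 8 and 34 genes in place of 35 over the table. Deviations of same-numbered libraries correlated at 0.0065, so the numbers were not shown to pair the samples. The large-subunit median (0.073) ranged from 0.010 to 0.088 with a library left out and was 0.039 with coding-gene scaling. The small-subunit median (0.017) ranged from 0.0097 to 0.034 with a library left out, was -0.017 with coding-gene scaling, 0.00076 with median centring and 0.051 with the length and GC correction, with the replicate block or without. The small-subunit sum difference (38.1 FPKM) was -43.7 with coding-gene scaling and -2.60 with median centring. On coding transcripts alone 6 of 80 members changed sign: Rpl7a (-1.79), Rpl12 (-0.84), Rps16 (-0.50), Rps6 (-0.048), Rpl11 (0.066) and Rpl36a (0.27). With the length and GC correction, blocked or not, they turned for Rpl35a (0.0067), Rpl36al (0.079) and Taf1c (-0.043). With each library left out in turn, differences ranged from -0.21 to 0.011 for Nemf, -0.14 to 0.13 for Rpl36al (0.014 without knockout replicate 1), -0.15 to 0.027 for Rpl7l1 and -0.29 to 0.0057 for Taf1d, all positive without wild-type replicate 2, and from -0.034 (without knockout replicate 2) to 0.084 for Rps27l, which coding-gene scaling put at -0.0061. Causes other than the construction of an alternative were not tested. Of the other values of named genes under an alternative, 520 kept direction and side of the threshold and 31 passed it.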
